A study of Arabidopsis thaliana with 9 samples.

Results

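Indole glucosinolate synthesis in the Arabidopsis thaliana root was followed through 10 genes named by their locus, and 8 of them have a row among the 31124 loci of the deposited expression table. These 8 are CYP79B3 (AT2G22330), CYP83B1 (AT4G31500), SUR1 (AT2G20610), UGT74B1 (AT1G24100), SOT16 (AT1G74100), CYP81F4 (AT4G37410), MYB34 (AT5G60890) and MYB51 (AT1G18570); CYP79B2 and CYP81F2 were not analysed here. The RNA came from the oscillation zone, a stretch of root near the tip where auxin response oscillates and the positions of later lateral roots are chosen. The potent group is a line altered in IAA18, a repressor of auxin response, and the arf7 group carries an altered ARF7, which encodes an auxin response factor; neither the alleles nor their ecotype are named in the labels. The Control group is wild-type Col0, collected at the minimum of the oscillation. Each group had 3 independent samples, dissected at 7 dpi while a DR5::Luciferase reporter of auxin response was followed. The labels do not give the phase of the oscillation at which the mutants were collected, so genotype and phase cannot be told apart.

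Glucosinolates are sulfur-rich defence compounds of the cabbage order that are stored intact and split by beta-thioglucosidases when tissue is damaged or attacked. The indole class starts from tryptophan. CYP79B enzymes turn tryptophan into indole-3-acetaldoxime, which also feeds camalexin and can feed auxin, and CYP83B1 draws the oxime into the glucosinolate route. A glutathione conjugate then forms and is trimmed, SUR1 cleaves its carbon-sulfur bond, UGT74B1 adds glucose and SOT16 adds sulfate. CYP81F enzymes and methyltransferases finally decorate the indole ring, and the R2R3-MYB factors MYB34, MYB51 and MYB122 switch on the whole set. Plants that lack SUR1 or CYP83B1 overproduce auxin and form excess roots, which ties this route to root branching.

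The upstream sequences of 4 of these genes are shown because these genes had the largest ratios of potent over Control (CYP79B3, CYP83B1 and SUR1) or, unlike the other members, their highest level in arf7 (MYB51). Each run is the 250 bases before the annotated gene start, 5′ to 3′ on the gene's own strand, read from the RefSeq genome of build TAIR10.1, and no other annotated gene overlaps these 4 windows. The expression tables carry no coordinates and were joined to this reference by locus identifier alone. The windows are chr2:9488163-9488412 (plus strand) for CYP79B3, chr4:15275405-15275654 (minus strand) for CYP83B1, chr2:8880441-8880690 (minus strand) for SUR1 and chr1:6389149-6389398 (plus strand) for MYB51. Capitals mark any match to the motifs searched.
CYP79B3: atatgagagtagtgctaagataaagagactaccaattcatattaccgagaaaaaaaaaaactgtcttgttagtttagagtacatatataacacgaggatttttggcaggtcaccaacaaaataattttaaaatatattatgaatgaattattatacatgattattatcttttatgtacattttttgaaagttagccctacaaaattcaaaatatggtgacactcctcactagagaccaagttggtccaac
CYP83B1: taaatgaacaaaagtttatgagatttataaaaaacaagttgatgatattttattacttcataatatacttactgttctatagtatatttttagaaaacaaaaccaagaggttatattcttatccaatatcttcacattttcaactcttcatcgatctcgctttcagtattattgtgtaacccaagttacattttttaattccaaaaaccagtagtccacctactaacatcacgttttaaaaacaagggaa
SUR1: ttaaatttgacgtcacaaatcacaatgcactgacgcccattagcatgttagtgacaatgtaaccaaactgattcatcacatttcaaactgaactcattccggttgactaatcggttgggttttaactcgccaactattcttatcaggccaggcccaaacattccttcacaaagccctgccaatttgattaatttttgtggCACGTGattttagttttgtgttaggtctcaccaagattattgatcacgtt
MYB51: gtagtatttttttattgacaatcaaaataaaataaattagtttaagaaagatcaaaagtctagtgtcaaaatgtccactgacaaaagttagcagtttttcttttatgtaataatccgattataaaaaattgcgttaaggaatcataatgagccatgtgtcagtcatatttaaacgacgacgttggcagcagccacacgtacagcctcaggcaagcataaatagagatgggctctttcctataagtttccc
The motifs were the G-box CACGTG, which MYC factors bind, and the auxin response elements TGTCTC and TGTCGG, which ARF factors bind, on both strands; no motif contains another. The G-box reads the same on both strands. Of the 8 members' windows, 1 held a G-box, that of SUR1, from 50 to 45 bases before the gene start, against 6.49% of 27437 windows of protein-coding genes. None of the 8 held TGTCTC or TGTCGG, which 10.9% and 4.16% of all windows hold. A match describes the letters only, and no match says only that these letters are not in this window.

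Values are FPKM, fragments scaled by transcript length and library size, with 1 value per locus and genotype that stands for the 3 samples together. No spread between samples and no depth is given, so no error or test could be computed from them. In dissected tissue, more cells of a type and more RNA per cell cannot be told apart. The words rose and fell are kept for genes that appear in the authors' deposited table of comparisons; other genes are given by their values. The authors' deposited table lists 1582 loci for potent and 995 for arf7. ARF7 itself had 9.35 FPKM in potent, 2.64 in arf7 and 12.0 in Control. IAA18 had 21.8 FPKM in potent, 19.1 in arf7 and 10.6 in Control, and neither gene is listed. Endodermal markers were abundant in all 3 genotypes and the 4 root cap markers were at or near 0 (summed level 0.00, 0.00 and 0.139 FPKM in potent, arf7 and Control).

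The core enzymes of indole glucosinolate synthesis were higher in potent than in Control at every step measured, and 4 of these 5 genes rose by the authors' test. CYP83B1 had 153.9 FPKM in potent and 12.3 in Control. SUR1 had 90.4 FPKM in potent and 12.6 in Control. UGT74B1 had 111 FPKM in potent and 17.4 in Control. These are the steps from the oxime to the desulfo-glucosinolate, and the ratios of FPKM were 12.5-fold, 7.14-fold and 6.40-fold. SOT16, the sulfotransferase of the last core step, had 277 FPKM in potent and 51.7 in Control. CYP79B3, the tryptophan-to-oxime enzyme, had 40.2 FPKM in potent and 0.571 in Control, the widest ratio of the 8 members, but is not listed. In the authors' deposited table the log2 fold changes in potent are 3.64 for CYP83B1, 2.84 for SUR1, 2.68 for UGT74B1 and 2.42 for SOT16, each with q = 0.00145.

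CYP81F4, which oxidises the indole ring on the way to the N-methoxylated form, also rose in potent, with 136 FPKM in potent and 39.2 in Control (log2 fold change 1.79, q = 0.00269 in the authors' deposited table). The MYB regulators are not listed in potent. MYB34 had 39.6 FPKM in potent and 25.3 in Control, the smallest ratio of the 8 members. MYB51 had 6.80 FPKM in potent and 2.08 in Control. In all, 5 of the 8 members are listed as higher in potent and none as lower, where 4.07% of the 17805 loci with at least 1 FPKM in potent or Control are listed as higher and 4.62% as lower. On the scale log2((FPKM + 1)/(FPKM + 1)), 7 of the 8 were at least 2-fold higher in potent, against 21.1% of those loci, and none was 2-fold lower, against 17.0%. The median of the 8 on that scale was 2.50, beside 0.04 over all these loci.

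**Figure D1:**
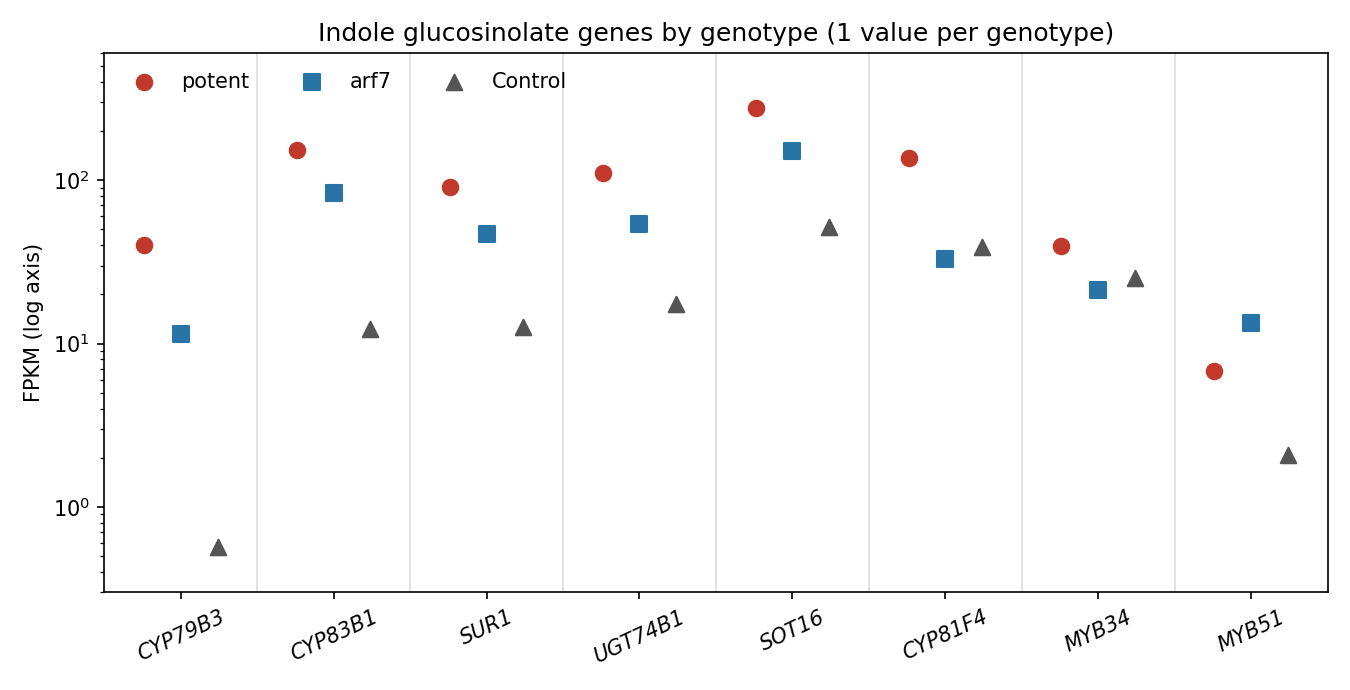
FPKM on a log axis for the 8 members, ordered by pathway step and then regulators, with 1 point per genotype (circle potent, square arf7, triangle Control) that stands for 3 samples and has no error bar. The 5 core enzymes run potent, arf7, Control from high to low; CYP81F4 and MYB34 are highest in potent and near Control in arf7, and MYB51 is highest in arf7 at 13.3 FPKM.

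In arf7 the core enzymes also lay above Control, and 3 of the 5 genes rose by the authors' test, while CYP81F4 and MYB34 were close to their Control level. CYP83B1 had 83.3 FPKM in arf7 and 12.3 in Control. SUR1 had 47.1 FPKM in arf7 and 12.6 in Control. SOT16 had 150 FPKM in arf7 and 51.7 in Control. These 3 genes have log2 fold changes of 2.76, 1.90 and 1.54 in the authors' deposited table, with q = 0.00145 for CYP83B1 and SUR1 and q = 0.00269 for SOT16. UGT74B1, with 54.2 FPKM in arf7 and 17.4 in Control, and CYP79B3, with 11.5 FPKM in arf7 and 0.571 in Control, are not listed.

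The ring-modifying CYP81F4 had 32.9 FPKM in arf7 and 39.2 in Control, and MYB34 had 21.3 FPKM in arf7 and 25.3 in Control. MYB51 had 13.3 FPKM in arf7 and 2.08 in Control, a 6.39-fold ratio from a low Control level, and is not listed. Of the 8 members, 3 are listed as higher in arf7, where 2.41% of 17345 loci are, and none as lower, where 3.14% are. On the log2 scale 6 of the 8 were at least 2-fold higher in arf7, against 16.2% of all loci, and none was 2-fold lower, against 14.1%. The median of the 8 was 1.70, beside -0.02 over all loci. Both mutants were set against the same Control samples, so a Control value that was low by chance would raise both ratios.

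Among the members themselves the ratios differed by step. In potent the log2 ratios over Control were 4.71 for CYP79B3, 3.54 for CYP83B1, 2.74 for SUR1, 2.61 for UGT74B1, 2.40 for SOT16 and 1.77 for CYP81F4, each smaller than that of the member before it. In arf7 the corresponding ratios were 2.99, 2.66, 1.82, 1.58, 1.52 and -0.25. Genes of the same route outside the members break this order: GGP1, which acts between CYP83B1 and SUR1, had 2.27 in potent and 1.44 in arf7, and IGMT5, which acts after CYP81F4, had 4.36 in potent and 1.91 in arf7. The Control levels of the 5 core genes run the other way, from 0.571 FPKM for CYP79B3 to 51.7 FPKM for SOT16. The order among neighbouring steps such as SUR1 and UGT74B1 rests on small differences whose error is unknown. Summed over the 8 members, the level was 855 FPKM in potent, 414 in arf7 and 161 in Control. That is 0.0972% of all FPKM in potent, 0.0487% in arf7 and 0.0178% in Control. By level, SOT16 was the highest member in each genotype, and its rank among loci above 0 was 596 of 20052 in potent, 1082 of 20685 in arf7 and 2976 of 20179 in Control. CYP83B1 ranked 1086 in potent, 1881 in arf7 and 7816 in Control.

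**Figure D2:**
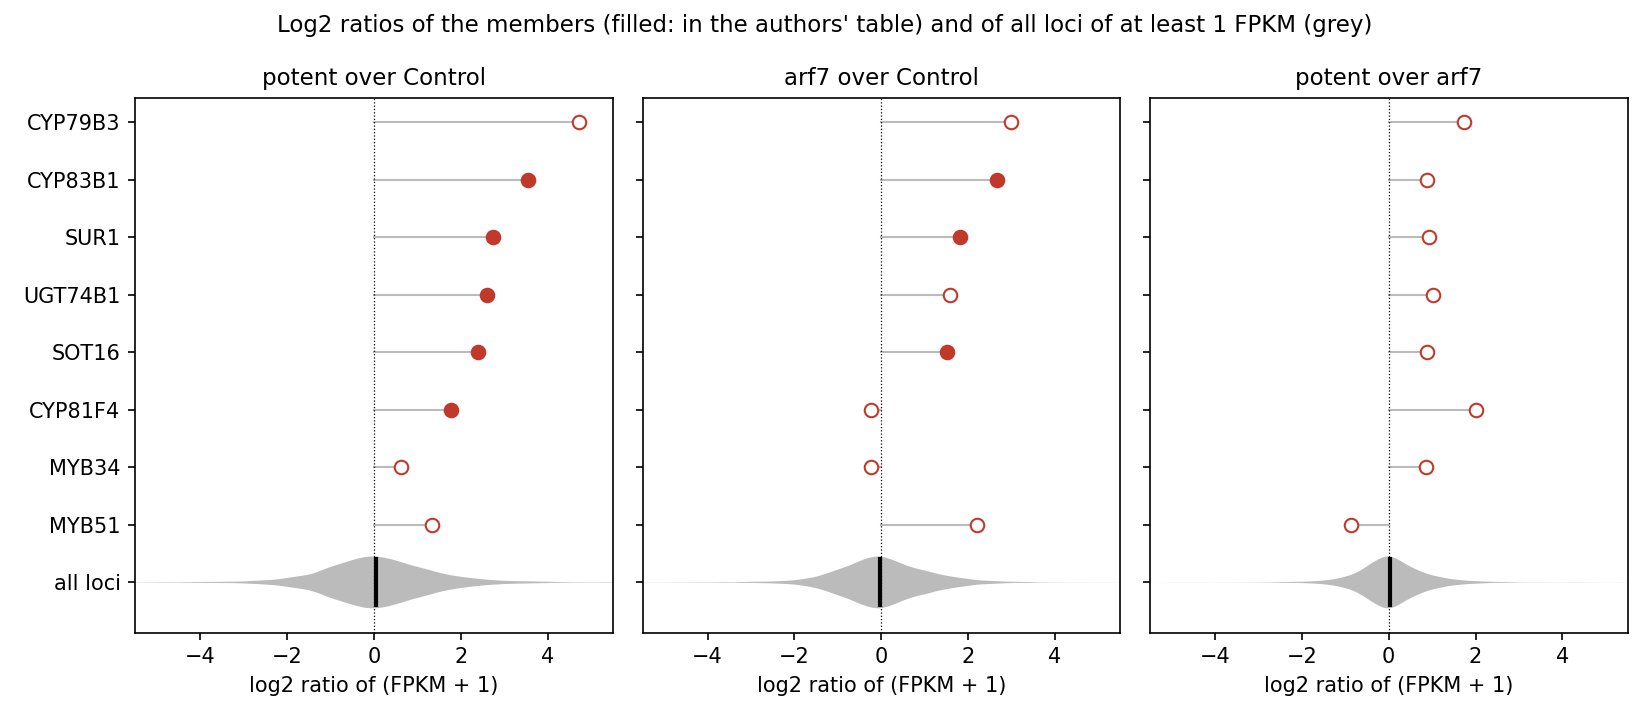
Log2 ratio of (FPKM + 1) for each member (circles, filled where the authors' deposited table lists the gene) in 3 comparisons, with the distribution over all loci of at least 1 FPKM as a grey violin and its median as a bar. Among the 5 core enzymes the ratio in potent is 4.71 for CYP79B3 and 2.40 for SOT16; no authors' comparison of potent with arf7 was used, so all circles there are open.

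The mutants were next set against each other, for which the tables hold no comparison by the authors. Of the 8 members 7 had a higher value in potent than in arf7, as did 9106 of the 17543 loci with at least 1 FPKM in either. CYP81F4 differed most, with 136 FPKM in potent and 32.9 in arf7 (log2 ratio 2.02). CYP79B3 had 40.2 FPKM in potent and 11.5 in arf7 (1.72), and UGT74B1 had 111 FPKM in potent and 54.2 in arf7 (1.03). These 3 were at least 2-fold higher in potent, where 10.6% of 17543 loci were, and none was at least 2-fold lower, against 6.93%. CYP83B1, SUR1, SOT16 and MYB34 had log2 ratios between 0.87 and 0.93. MYB51 went the other way, with 6.80 FPKM in potent and 13.3 in arf7 (-0.88). The balance of the MYB factors, compared per transcript length, therefore differed by value. MYB34 was 5.82 times the level of MYB51 in potent, 1.60 times in arf7 and 12.2 times in Control. The Control ratio rests on a low MYB51 value of 2.08 FPKM, and neither gene is listed in either mutant. Without values per sample none of these differences between the mutants, nor the MYB ratio in any genotype, was tested.

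Genes that act on either side of the members were taken from 11 lists with 77 genes. Of the loci with at least 1 FPKM, 4.07% are listed as higher in potent and 2.41% in arf7. Listed as lower are 4.62% in potent and 3.14% in arf7. Of 10 tryptophan synthesis genes 1 rose in potent and none in arf7, with list medians, for every list taken over genes of at least 1 FPKM in either genotype, of 0.76 in potent and 0.05 in arf7. The gene that rose, TSB1, encodes the beta subunit of tryptophan synthase and had 102 FPKM in potent, 65.0 in arf7 and 46.4 in Control. TSA1, of the alpha subunit, had 121 FPKM in potent, 70.6 in arf7 and 70.7 in Control and is not listed.

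Between CYP83B1 and SUR1 the oxidised oxime is joined to glutathione and trimmed. Of 6 genes for glutathione conjugation 4 rose in potent and 2 in arf7, where 4.07% and 2.41% of all loci are listed as higher. GGP1, the gamma-glutamyl peptidase that trims the conjugate, had 303 FPKM in potent, 169.8 in arf7 and 62.0 in Control, and is listed for both mutants. The glutathione transferase gene GSTF9 had 2218 FPKM in potent, 1060 in arf7 and 305 in Control, also listed for both. GSTU20, with 85.8 FPKM in potent, 21.6 in arf7 and 6.50 in Control, and GSTF11, with 10.4 in potent, 0.542 in arf7 and a listed 0 in Control, rose in potent; both are best known from the methionine-derived route. GSTF10 had 1868 FPKM in potent, 1929 in arf7 and 1016 in Control and is not listed. GSTU13, the remaining gene of this list, was near its Control level in potent. It had 119.9 FPKM in potent, 188 in arf7 and 122.6 in Control, is not listed, and was chosen after its values were seen.

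SOT16 needs activated sulfate (PAPS), which APS kinases make. APK2 had 81.0 FPKM in potent, 24.5 in arf7 and 2.42 in Control, and APK1 had 40.1 in potent, 22.0 in arf7 and 11.2 in Control. Both rose in potent and neither is listed in arf7. SAL1, a phosphatase that clears the spent cofactor, had 75.9 FPKM in potent, 41.8 in arf7 and 33.3 in Control and is not listed. Of 9 genes that respond to sulfur limitation 1 rose, the sulfate uptake gene SULTR1;2 in potent. It had 116 FPKM in potent, 59.5 in arf7 and 44.3 in Control. By value, 5 of the 8 genes of at least 1 FPKM were at least 2-fold higher in potent and 1 was at least 2-fold lower. Of all loci, 21.1% and 17.0% were. In arf7 the counts were 3 and 1, against 16.2% and 14.1% of all loci. The list medians were 1.47 in potent and 0.70 in arf7. APR3, an APS reductase gene of sulfate assimilation, had 48.7 FPKM in potent, 36.2 in arf7 and 36.5 in Control.

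Among the genes that decorate the indole ring, the direction differed between close relatives of CYP81F4. CYP81F3 and CYP81F1 lie near CYP81F4 on chromosome 4, each with 1 protein-coding gene in between. CYP81F3, which oxidises a carbon of the ring, fell in both mutants, with 3.50 FPKM in potent, 7.47 in arf7 and 41.2 in Control (log2 fold changes -3.56 and -2.46 in the authors' deposited table, q = 0.00145 each). CYP81F1 (CYP91A2 in the annotation) had 9.40 FPKM in potent, 2.38 in arf7 and 2.02 in Control, is not listed, and was chosen after its values were seen. These paralogs may share reads, which makes their separate values uncertain. IGMT5, whose methyltransferase acts after CYP81F4, had 197 FPKM in potent, 35.1 in arf7 and 8.63 in Control and rose in both mutants. IGMT3 had 51.7 FPKM in potent, 44.5 in arf7 and 1.24 in Control, also listed for both, and IGMT4, with 0.919 FPKM in potent, 3.51 in arf7 and a listed 0 in Control, rose in arf7; the IGMT1 to IGMT4 genes are near-identical neighbours and their values are uncertain.

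No other regulator of the route rose or fell by the authors' test. Of 7 genes in the list 6 have values, the authors' deposited table holds none of them, and the list median was 0.35 in potent and 0.45 in arf7. By value, 1 of the 5 genes of at least 1 FPKM was at least 2-fold higher in potent, against 21.1% of all loci. In arf7 2 of 5 were, against 16.2%. None was at least 2-fold lower in potent or in arf7, against 17.0% and 14.1% of all loci. MYB122, a minor partner of MYB34 and MYB51, had 18.0 FPKM in potent, 12.8 in arf7 and 3.13 in Control. MYC2, the jasmonate-pathway factor that acts with these MYBs, had 15.6 FPKM in potent, 19.2 in arf7 and 21.8 in Control. OBP2 of the same list was, like MYB51, highest in arf7. It had 7.61 FPKM in potent, 15.7 in arf7 and 5.78 in Control, and was chosen after its values were seen. The transporter gene AT1G18880 (NRT1.9 in the annotation) had 71.3 FPKM in potent, 81.6 in arf7 and 11.9 in Control and rose in both mutants. GTR2, a glucosinolate importer, had 101 FPKM in potent, 64.7 in arf7 and 7.30 in Control without being listed. GTR1, the remaining gene of the transporter list, had 16.4 FPKM in potent, 32.3 in arf7 and 15.6 in Control. It is not listed and was chosen after its values were seen.

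Breakdown genes went in both directions. Of 13 genes 1 rose and 3 fell in potent, where 4.07% of all loci are listed as higher and 4.62% as lower, and none rose and 3 fell in arf7, where 2.41% and 3.14% are. Of the 7 that reached 1 FPKM, 3 were above and 4 below Control in potent, and 2 were above and 5 below it in arf7. The root beta-glucosidase gene BGLU21 had 55.8 FPKM in potent, 251 in arf7 and 888 in Control, and BGLU22 had 21.3 in potent, 24.2 in arf7 and 163 in Control. PYK10, the main beta-glucosidase of root ER bodies, had 1567 FPKM in potent, 809 in arf7 and 853 in Control and is not listed; these 3 genes are close paralogs that may share reads. The nitrile-specifier genes, whose products steer breakdown to nitriles, split. NSP5 fell in both mutants, with 23.9 FPKM in potent, 14.9 in arf7 and 88.3 in Control, and NSP1 rose in potent, with 38.2 FPKM in potent, 8.64 in arf7 and 2.02 in Control. The classical myrosinase genes TGG1 and TGG2 of the shoot, named after their values were seen, are listed at 0 in all 3 genotypes. TGG4 and TGG5 of the same list, also named after their values were seen, had 1.06 and 0.833 FPKM in Control. They had 0.0463 and 0 FPKM in arf7 and 0 in potent, and neither is in the authors' table.

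**Figure D3:**
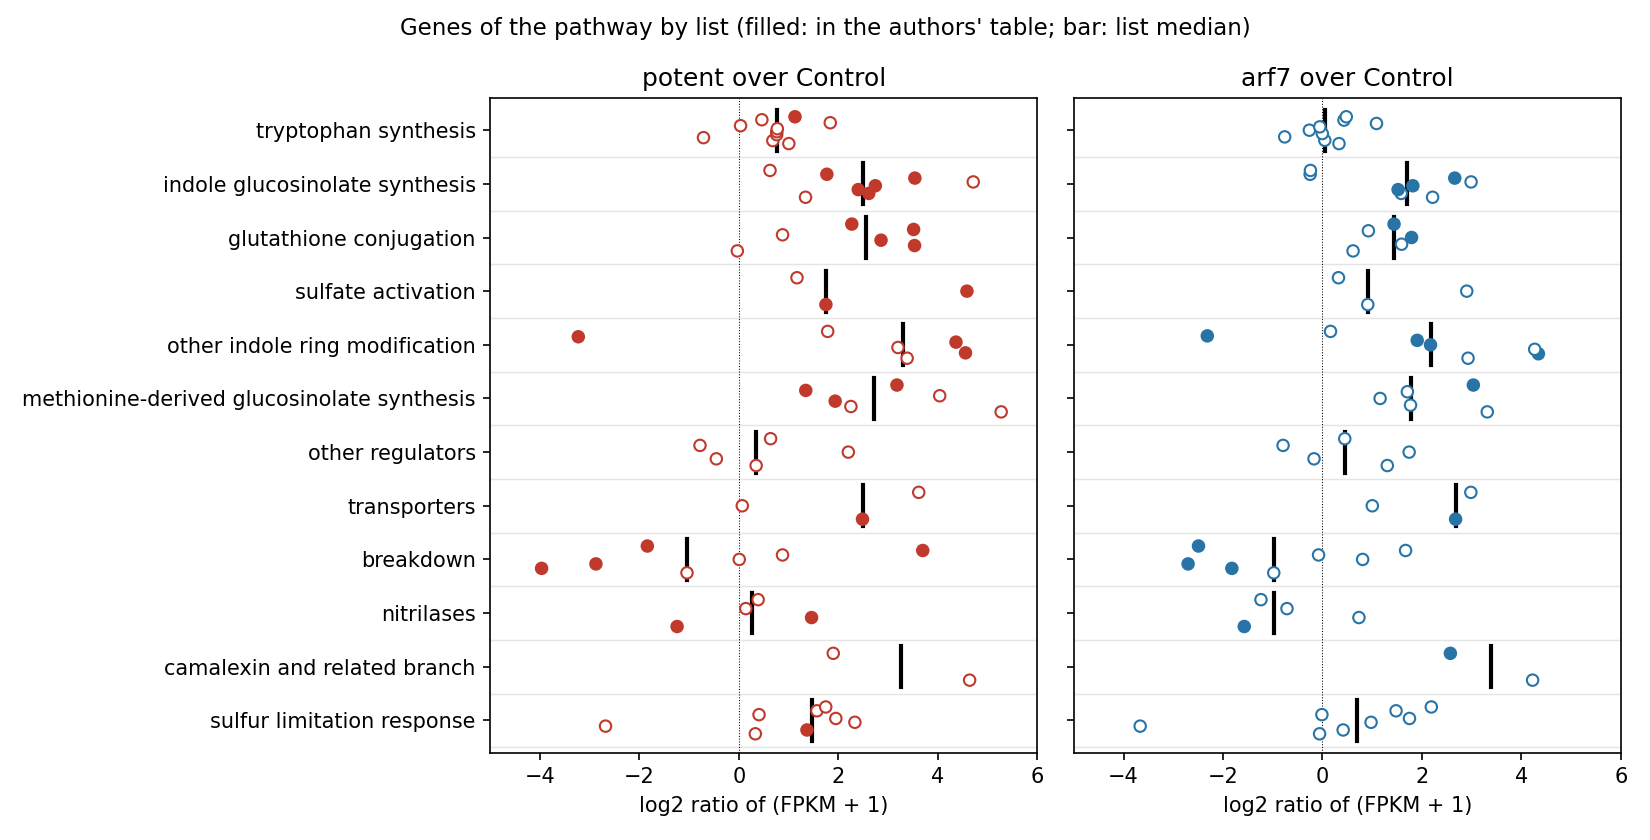
Log2 ratio of (FPKM + 1) over Control for each gene of 12 lists in potent (left) and arf7 (right), for genes of at least 1 FPKM in either genotype; filled circles are in the authors' deposited table and black bars are list medians. In potent the synthesis lists lie mostly right of 0, with a median of 2.50 for indole glucosinolate synthesis. In arf7 the tryptophan synthesis list has a median of 0.05, with 5 genes above and 4 below Control. The breakdown list has genes far to both sides, from -3.97 for BGLU21 to 3.70 for NSP1 in potent.

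Other uses of the same intermediates were measured too. Of 4 nitrilase genes, NIT1 rose in potent with 393 FPKM in potent, 237 in arf7 and 142 in Control. NIT2 fell in both mutants, with 42.7 FPKM in potent, 33.8 in arf7 and 102 in Control, and NIT3 had 74.3 in potent, 40.8 in arf7 and 67.4 in Control. In the camalexin branch, which leaves from the same oxime, 2 of 6 genes reached 1 FPKM in potent or Control. PAD3, the last camalexin enzyme, rose in arf7, with 13.0 FPKM in potent, 21.4 in arf7 and 2.77 in Control. GSTF6 had 40.3 FPKM in potent, 30.0 in arf7 and 0.658 in Control and is not listed. CYP71A13, which commits the oxime to camalexin, is listed at 0 in all 3 genotypes; it was chosen after its values were seen.

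The route from methionine, the set of genes most like the indole one, had values above Control as well. Of its 9 genes 6 reached 1 FPKM in potent or Control, with a median log2 ratio of 2.71 in potent, and 5 did so in arf7 or Control, with a median of 1.77. MYB28, its main regulator, had 23.5 FPKM in potent, 21.2 in arf7 and 1.71 in Control and rose in both mutants. SOT18, the sulfotransferase gene next to SOT16 on chromosome 1, had 68.1 FPKM in potent, 39.4 in arf7 and 17.1 in Control. It rose in potent, in an entry of the authors' table that joins SOT18 with AT1G74088. CYP83A1, with 1.54 FPKM in potent, 0.199 in arf7 and a listed 0 in Control, rose in potent. CYP79F2 had 38.5 FPKM in potent, 9.17 in arf7 and 0.0221 in Control and is not listed; reads may be shared with its close paralog CYP79F1, also named after its values were seen, which is listed at 0 in all 3 genotypes.

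Loci outside these lists were ranked by how near their pair of log2 ratios over Control lay to the members' median pair. Among 8622 such loci with at least 10 FPKM in Control, 69 lay within a Euclidean distance of 0.5, a likeness over 3 genotypes and so only 2 ratios. The nearest were AT3G01475, the photosystem gene PSBQA (AT4G21280) and AT1G49310, at distances of 0.08, 0.12 and 0.13. PSBQA had 62.9 FPKM in potent, 40.1 in arf7 and 10.7 in Control.

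Summed levels of root hair, endodermis, xylem and green shoot markers were above Control in both mutants, though not every marker was. Over all loci, 4.07% are listed as higher in potent and 2.41% in arf7. Of 5 root hair markers 4 are listed as higher in each mutant, with a summed level of 2256 FPKM in potent, 1334 in arf7 and 414 in Control; the remaining one, COBL9, had 57.6, 96.5 and 73.3 FPKM in potent, arf7 and Control. Of 8 endodermis markers none is listed in potent and 2 are in arf7, with sums of 8641, 7703 and 3004 FPKM in potent, arf7 and Control, of which CASP1 alone gave 4255, 3353 and 1375 FPKM. Among these 8, MYB36 had 73.0, 95.4 and 83.1 FPKM and SCR had 34.8, 21.2 and 25.5 FPKM in potent, arf7 and Control; COBL9, MYB36 and SCR were chosen after their values were seen. Of 6 xylem markers 2 are listed as higher in potent and 3 in arf7, with sums of 454 FPKM in each mutant and 95.9 in Control. Of 6 green shoot markers 2 are listed as higher in potent and none in arf7, with sums of 104, 46.8 and 17.8 FPKM in potent, arf7 and Control. The part of these cell types in the members' values was not tested.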

How the data were processed

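Total RNA from 9 samples, 3 each of potent, arf7 and Control, was analysed from 2 tables of the whole series. Cufflinks, Cuffdiff, TopHat, TopHat2, Bowtie and Bowtie2 and the build TAIR10 appear in the submitters' processing notes without versions or roles; settings were not given. The deposited expression table gives 1 value per locus and genotype. Its header names no unit; the authors' values were taken as FPKM from the tools named and because they are not whole and sum to 879820 in potent, 850089 in arf7 and 905924 in Control. The authors' deposited table of comparisons holds 2577 entries of a mutant against Control, each with a q-value (0.00145 to 0.00945) and a log2 fold change, of which 490 are text because a genotype is at 0. All 2087 numeric log2 fold changes match the deposited FPKM values to within 0.0001. No listed change is smaller than 1.14 on that scale, so absence from the table does not show that a gene did not change.

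Depth is unknown, so no interval was computed, and since only 1 value per genotype is given no test was run. Log2 ratios used a pseudocount of 1 FPKM, which understates changes of low genes; counts past 2-fold are set beside all loci with at least 1 FPKM in either genotype. FPKM falls for all loci when a few are very abundant: the 100 highest took 23.2%, 22.9% and 20.6% of the sum in potent, arf7 and Control. Beyond the members, the text names list genes in the authors' table, the 2 most abundant per list and the 3 loci nearest in pattern. Members and lists were chosen with earlier results of these data known. Symbols come from the RefSeq annotation of TAIR10.1; IQD1 of the regulator list was not analysed here. The cited library protocol keeps no strand, which leaves overlapping genes uncertain. Ratio and count functions were tested on simulated data. Alternatives were other pseudocounts, scalings, fold thresholds and backgrounds. Python 3.11.15, pandas 2.3.3 and numpy 2.4.6 were used.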

Additional observations from a re-analysis of the deposited data

How the results depend on the processing

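With pseudocounts of 0.1 or 0 FPKM, or with each genotype scaled to its sum, to its median or to its sum without the 100 highest loci, the median log2 ratio of the 8 members ranged from 2.46 to 2.61 in potent over Control, from 1.67 to 1.86 in arf7 over Control and from 0.85 to 0.92 in potent over arf7. Of 120 ratios of single members under these settings, 116 moved by less than 1.5-fold and none changed sign. The other 4 were those of CYP79B3, which is near 0 in Control: 5.91 and 6.14 in potent and 4.11 and 4.33 in arf7 with pseudocounts of 0.1 and 0. At a 1.5-fold threshold in place of 2-fold, 7 members were higher in potent than in arf7 (21.1% of all loci) and 1 was lower (16.3%), in place of 3 and 0. Scaled to the sum, with or without the 100 highest loci, 2 members were at least 2-fold higher in potent than in arf7, since UGT74B1 then lay just under 2-fold. Leaving out entries of the authors' table in which a genotype is at 0 removed no member. No paired analysis was possible because the columns combine the 3 samples of each genotype; for the same reason leaving out each replicate was not run. The unknown depth limits CYP79B3 and MYB51 most, at 0.571 and 2.08 FPKM in Control.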
